A study of Pinctada imbricata with 5 samples.

Results

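The DNA replication and cell division genes described here were 51 of the 19415 assembled transcripts (unigenes) listed in tag profiles of the pearl sac of a pearl oyster. They were chosen by words in the best protein match of each unigene, such as geminin, cyclin, cell division cycle, minichromosome maintenance, DNA polymerase, replication factor, condensin and survivin. No level or ratio was used to pick a unigene, but the members were chosen with earlier results of these data known. A protein match of any kind was given for 5341 unigenes. Of the 51 members, 43 matched a protein of replication or division, and 8 matched a protein of another role whose name holds one of the words. Among those 8 were CDC123, CDC37, SET, a second mitotic wave missing protein, a dis3 protein and a pair of CDC5-like unigenes.

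After a nucleus is implanted with a piece of mantle, the grafted epithelium closes around it as a sac, which then secretes the pearl. Tissue was taken 10, 15, 20, 30 and 60 days after surgical implantation, with 1 library per day and oysters of 1.5 years in every group. The labels name the organism Pinctada imbricata and the series title Pinctada martensii, and they give no further treatment or strain, nor how many oysters went into a library. Digital gene expression profiling was used, in which short tags of 21 bases, each beginning with the sequence CATG, are taken from messenger RNA and counted.

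Cells copy their DNA once per division. Before copying starts, Cdt1 and the minichromosome maintenance (MCM) helicase are loaded on origins, which is called licensing, and geminin holds Cdt1 back so that no origin fires again in the same cycle. The GINS complex and CDC45 then switch the helicase on, DNA polymerase alpha lays the primers, and replication factor C (RFC) loads the ring-shaped clamp PCNA that tethers the main polymerases. Mitosis is driven by cyclins A and B with their kinases, condensin compacts the chromosomes, and survivin with aurora kinase B guides their attachment to the spindle. Many of these messengers are made mostly in cycling cells. In bulk tissue, more cells of a dividing kind and more messenger per cell cannot be told apart.

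The main tags of the members described most are as follows, shown because each count is a number of copies of such sequences. For PCNA, cyclin B3 and the RFC 38-kDa subunit, further tags with fewer copies also entered the count. Capitals mark the CATG site at which the messenger was cut, and the number of the site is counted from the 3′ end of the unigene.
geminin (Unigene4604), site 1: CATGagaatgaaatgctccac
condensin II subunit D3 (Unigene90453), site 1: CATGgagaccagccaggaagc
DNA polymerase gamma-2 (Unigene79080), site 1: CATGggtactccattggaagg
DNA polymerase epsilon 3 (Unigene85160), site 1: CATGgaatttgaacagtttat
RFC 38-kDa subunit (Unigene90308), site 1: CATGccgtgtacaacagtacc
RFC 38-kDa subunit (Unigene90308), site 2: CATGtcgcttaatcctatgct
RFC5 (Unigene87316), site 1: CATGgatttgaaaacaataaa
PCNA (Unigene90357), site 1: CATGccttatgtacttattca
PCNA (Unigene90357), site 4: CATGggctttttgaggtacta
cyclin B (Unigene48756), site 1: CATGgctagtcttaaccactt
cyclin B3 (Unigene92715), site 10: CATGttggatccgaatcagaa
cyclin G1 (Unigene91307), site 1: CATGaatgtacctgtgctgta
survivin (Unigene82003), site 1: CATGtacgattagagatggac
Cdt1 (Unigene25451), site 1: CATGttcaggggaatggacac

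The libraries held between 4700927 and 4784094 tags, of which 12.8% to 28.0% were listed for unigenes. The day 15 library listed the most unigenes, 11675 against 8824 to 10456 on the other days, and 66.0% of those with a protein match against 34.9% to 46.8%. Levels are given as scaled TPM, that is the deposited TPM divided by a TMM factor, a scaling that centres the bulk of the genes. With 1 library per day, differences between days could not be tested and no p-value is given, and all intervals cover counting error only. Of the 28 unigenes that matched shell and mantle proteins, which mark the epithelium of the sac, 24, 11, 11, 14 and 9 were listed in order of day. Their summed level was 568, 89.5, 223, 897 and 82.9 scaled TPM, lowest on days 15 and 60. Tyrosinase-like protein 1 (Unigene1470) held 1127 of the 2545 tags on day 10 and 2622 of the 3704 on day 30. It was not listed on days 15, 20 and 60. By the rule given below, 1 was higher and 10 lower of 19 from day 10 to day 15. Of all unigenes 11.0% and 14.2% were. From day 30 to day 60, 1 was higher and 8 lower of 14, where 7.66% and 9.73% of all unigenes were. Mantle gene 1 (Unigene89281) ran otherwise, with 6, 47, 450, 2 and 23 tags. So did a mantle gene 4 (Unigene75755), with 79, 39, 139, 58 and 172. Another mantle gene 4 (Unigene59776) had 277, 308, 143, 0 and 0, and held 308 of the 497 tags of the list on day 15. A further mantle gene 4 (Unigene79830) had 19, 63, 5, 73 and 68 tags. A nacre protein (Unigene14842) had 78, 5, 111, 356 and 152, so it was low on day 15 but not on day 60. The low sums on days 15 and 60 were thus not shared by every marker.

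Most members were rare. Over the 5 libraries they had 3912 tags in all, and geminin alone took 1788 of them (45.7%). Only 6 members reached 10 scaled TPM in any library, 26 reached 1 scaled TPM, which was 4.13 to 5.55 tags, and 25 never did. All 5 days listed 11 members, and 20 members were listed on 1 day only. A unigene that was not listed may still have had a tag seen once, since no listed tag had fewer than 2 copies. Gene ontology terms, which the choice did not use, named DNA replication for 9 of the 51 (17.6%) and for 31 of the 5341 matched unigenes (0.580%).

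As a group the members stood highest on day 60 and next highest on day 15. Their tags summed to 277, 798, 508, 346 and 1983 in order of day. The summed level was 61.8 scaled TPM on day 10 (54.7 to 69.5, exact Poisson 95% interval), 144 on day 15 (134 to 154), 118 on day 20 (108 to 128), 83.8 on day 30 (75.2 to 93.1) and 365 on day 60 (349 to 381). The sum was 2.33-fold higher on day 15 than on day 10 (2.03 to 2.68) and 4.35-fold higher on day 60 than on day 30 (3.88 to 4.89), or 2.64-fold for day 60 over day 30 without geminin (2.27 to 3.07). Geminin decided how far day 60 stood above day 15. Without geminin the sums were 50.6, 104, 70.5, 55.0 and 145, and without the 3 most abundant members they were 31.7, 95.4, 43.4, 29.8 and 75.2, so that day 15 was then the highest. With or without them, days 15 and 60 both lay above days 10, 20 and 30. The summed level of all matched unigenes, leaving out the dominant Unigene51171, was 22559 scaled TPM on day 15 and between 15044 and 16615 on the other 4 days, so it too was highest on day 15, while day 60 lay between days 30 and 20. Markers of sperm and motile cilia summed also stood highest on day 15, at 143 scaled TPM against 14.2 or less on the other days. The summed level of the mantle and shell markers was lowest on days 15 and 60, the days on which the members were highest. The part of either in the levels of the members was not tested.

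**Figure D1:**
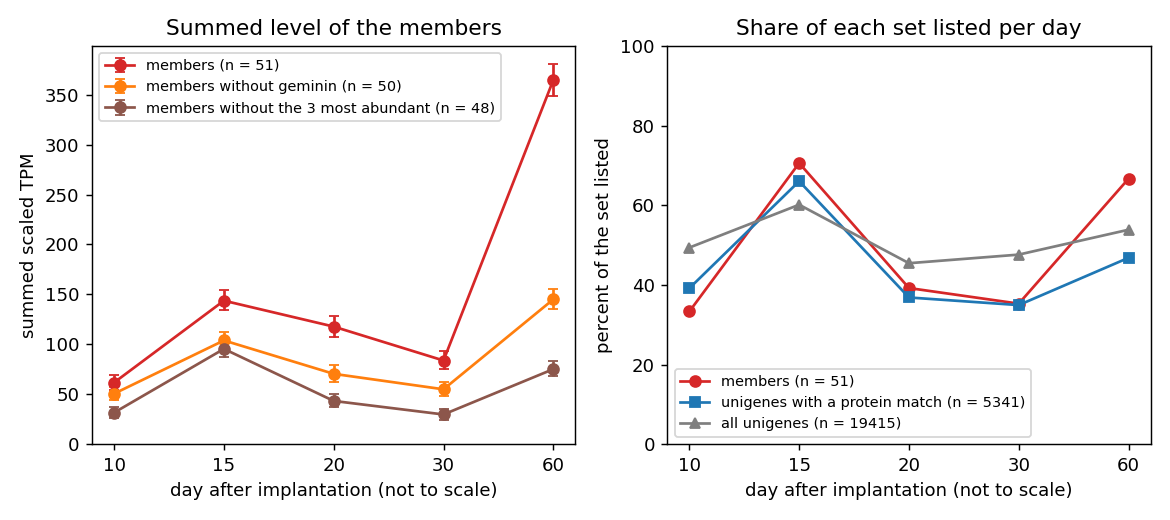
Left, summed scaled TPM by day for all 51 members, for the 50 without geminin and for the 48 without the 3 most abundant, with exact Poisson 95% intervals; right, the percent of each set of unigenes listed per day. The sums peak on days 15 and 60, and 70.6% of the members were listed on day 15 and 66.7% on day 60 against 33.3% to 39.2% on the other days.

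The number of members listed followed the same days, at 17, 36, 20, 18 and 34 of 51. On day 15 the share of members listed (70.6%) was near that of all matched unigenes (66.0%), and on day 60 it was 66.7% against 46.8%. The level of 22 members was highest on day 15 and that of 21 on day 60, while only 8 had their highest level on day 10, 20 or 30. Among matched unigenes 41.9% were highest on day 15 and 20.2% on day 60.

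In licensing and initiation, geminin (Unigene4604) had 50, 221, 204, 119 and 1194 tags in order of day. Its levels were 11.2, 39.8, 47.3, 28.8 and 219 scaled TPM, so the day 60 library stood far above the other 4 and the day 10 library lowest. Day 60 was 7.61-fold above day 30 (6.30 to 9.27) and 19.7-fold above day 10 (14.8 to 26.7). All of its tags were copies of 1 sequence at the 3′-most site. The match was a geminin-like protein of the acorn worm Saccoglossus with an e-value of 1.84e-16. The geminin family of animals also holds relatives that act in cells with many cilia, and the name of the match does not tell them apart.

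Cdt1, the partner that geminin inhibits, was also seen mostly on day 60. The member matching Cdt1 (Unigene25451) had 2, 0, 0, 0 and 12 tags, and on day 60 it was at least 3.04-fold above day 30, taken against a floor of 3 tags, with a lower 95% limit of 2.11. A pair of other unigenes matched a Cdt1 protein without the words of the choice and were picked here after their values were seen. They had 0, 2, 0, 0 and 6 tags (Unigene75249) and 0, 0, 0, 0 and 5 tags (Unigene89580). These unigenes may be pieces of 1 messenger.

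GINS subunit PSF2 (Unigene87483), part of the complex that activates the helicase, had 45, 22, 45, 52 and 196 tags. Its levels were 10.0, 3.96, 10.4, 12.6 and 36.0 scaled TPM, lowest on day 15 and highest on day 60. Day 60 was 2.86-fold above day 30 (2.10 to 3.96) and 3.59-fold above day 10 (2.59 to 5.08). With the 3′-most site alone the ratio to day 30 was 2.71 (1.99 to 3.77), just short of lying beyond 2-fold. PSF2 thus did not share the high day 15 levels of the polymerases. The MCM helicase subunits were close to the limit of detection. MCM7 (Unigene91351) had 5, 7, 0, 0 and 4 tags and MCM4 (Unigene43381) 0, 6, 0, 0 and 2, and both were listed on days 15 and 60 but not on days 20 and 30. The MCM2 unigenes, the other MCM4 unigene, GINS PSF3, CDC45 and CDC7, the kinase that triggers firing, had at most 4 tags in any library.

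**Figure D2:**
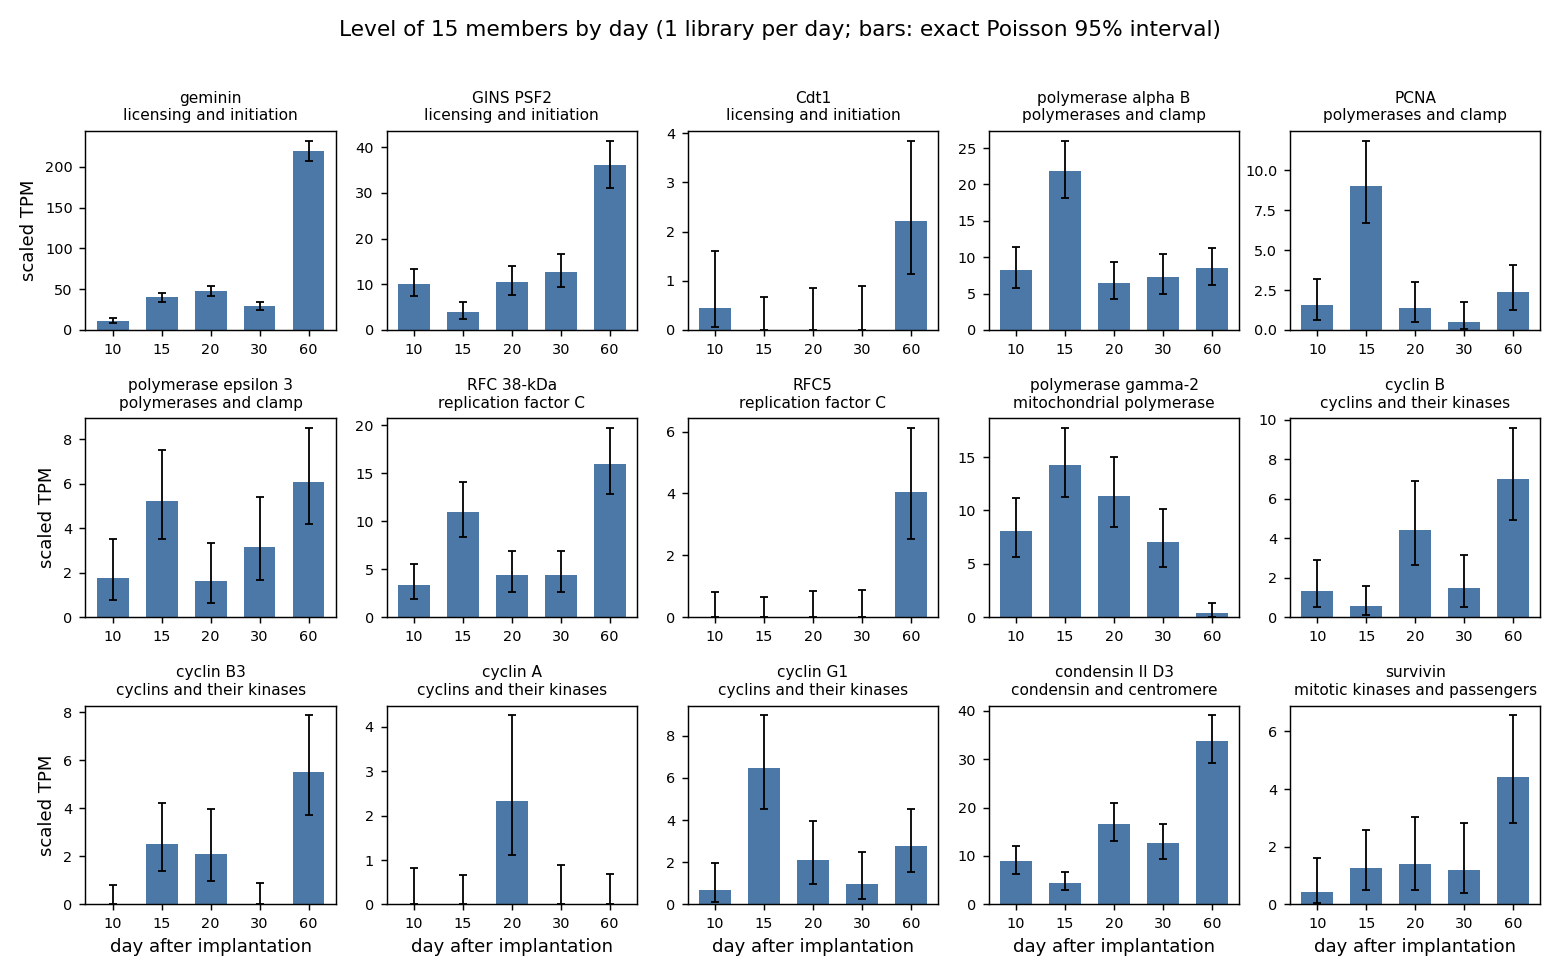
Scaled TPM by day for 15 members, each panel on its own axis from 0, with exact Poisson 95% intervals that cover counting error only. Geminin, PSF2, condensin II D3 and survivin are highest on day 60, PCNA, polymerase alpha B and cyclin G1 on day 15, cyclin A is listed on day 20 only, and polymerase gamma-2 is at 0.37 scaled TPM on day 60.

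Of the polymerases and the clamp, polymerase alpha B, PCNA and their summed level were highest on day 15, and polymerase epsilon 3 on day 60. DNA polymerase alpha subunit B (Unigene64641), the regulatory subunit of the priming polymerase, had 37, 121, 28, 30 and 46 tags. Day 15 stood above the other 4 libraries, which lay between 6.49 and 8.46 scaled TPM. Day 15 over day 10 was 2.64-fold (1.81 to 3.93), an interval that reaches under 2-fold, and the fall to day 20 was 3.36-fold (2.21 to 5.26). PCNA (Unigene90357), the sliding clamp, had 7, 50, 6, 2 and 13 tags, 5.77-fold higher on day 15 than on day 10 (2.60 to 15.1) and then 6.47-fold lower on day 20 (2.77 to 18.5). PCNA was the 1 member of 51 (1.96%) that lay beyond 2-fold on day 15 against each of the other days. That share was near the 1.88% of all unigenes and 2.25% of matched ones.

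PCNA was counted at 4 CATG sites, and the day 15 level rested on the fourth of them. Site 4 had 0, 33, 2, 2 and 6 tags, while the 3′-most site had 7, 11, 0, 0 and 5. With the 3′-most site alone the day 15 to day 10 ratio was 1.27 (0.449 to 3.86), which is no longer beyond 2-fold. A unigene matching a DNA polymerase delta processivity factor (Unigene85246), another name for this clamp, had 0, 10, 0, 0 and 3 tags, with the same days in front.

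DNA polymerase epsilon 3 (Unigene85160), a small histone-fold subunit of the leading-strand polymerase, had 8, 29, 7, 13 and 33 tags. It was high on days 15 and 60, 2.93-fold (1.31 to 7.41) and 3.40-fold (1.54 to 8.52) above day 10, and neither interval lay wholly beyond 2-fold. The other unigenes matching polymerases alpha and epsilon had 2 tags in each library that listed them. Over the 7 unigenes of this role the summed level was 11.6, 38.2, 10.4, 10.9 and 17.8 scaled TPM, 3.29-fold higher on day 15 than on day 10 (2.42 to 4.55) and 3.66-fold lower on day 20 (2.64 to 5.17).

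RFC, the clamp loader, was high on days 15 and 60. The 38-kDa subunit (Unigene90308) had 15, 61, 19, 18 and 87 tags, or 3.35, 11.0, 4.40, 4.36 and 16.0 scaled TPM. The days fell into a low set of 3 (10, 20 and 30) and a high pair. Day 60 was 3.67-fold above day 30 (2.19 to 6.48) and 4.78-fold above day 10 (2.75 to 8.91). The direction turned when the 3′-most site alone was counted, as described with the tag forms. RFC5 (Unigene87316) was listed on day 60 only, with 22 tags, at least 5.56-fold above day 30 (lower 95% limit 4.16). The large subunit had 6 tags and RFC2 3 tags, both on day 15 alone, and RFC4 had 2 tags on day 60 alone.

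A subunit of the polymerase of mitochondrial DNA went the other way on day 60. DNA polymerase gamma-2 (Unigene79080), the accessory subunit that holds this enzyme on its template, had 36, 79, 49, 29 and 2 tags. Its levels of 8.03, 14.2, 11.4, 7.03 and 0.37 scaled TPM were highest on day 15. They were lowest on day 60, the day when geminin, PSF2 and the RFC 38-kDa subunit were highest. Day 60 was 19.1-fold below day 30 (4.83 to 165) and 21.8-fold below day 10 (5.62 to 187). It was the 1 member lower on day 60 than on day 30 by the rule given below. The match had an e-value of 1.83e-07. Unigenes matching the catalytic subunit had 3 and 2 tags on day 15 and were not listed otherwise.

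The cyclins differed among themselves in their high days. Cyclin B (Unigene48756), which drives entry into mitosis, had 6, 3, 19, 6 and 38 tags. Day 20 was 8.15-fold above day 15 (2.40 to 43.0), and day 60 was 4.81-fold above day 30 (2.02 to 13.9) and 5.22-fold above day 10 (2.19 to 15.1). Cyclin B3 (Unigene92715), a B-type cyclin of mitosis and of meiosis, had 0, 14, 9, 0 and 30 tags and on day 60 was at least 7.59-fold above day 30 (lower limit 5.80). With the 3′-most site alone cyclin B3 was at least 2.02-fold higher (lower limit 1.30), which is short of the rule. Cyclin A (Unigene90735), which acts in replication and in early mitosis, was listed on day 20 only, with 10 tags, at least 4.29-fold above day 15 (lower limit 2.89). All of its tags lay at sites 5 and 6, so with the 3′-most site alone it has no count. Cyclin G1 (Unigene91307), which in mammals is a target of p53 and not a driver of the cycle, had 3, 36, 9, 4 and 15 tags, 9.69-fold higher on day 15 than on day 10 (3.06 to 49.2). Cyclins B and G1 therefore differed in their day 15 libraries, with 3 and 36 tags. The CDK10, CDK2-interacting and CDC2-like unigenes had at most 3 tags in a library.

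Of the chromosome and spindle genes, condensin II subunit D3 (Unigene90453) had 40, 25, 72, 52 and 184 tags, or 8.92, 4.50, 16.7, 12.6 and 33.8 scaled TPM. Like PSF2 it was lowest on day 15 and highest on day 60. It was 3.71-fold higher on day 20 than on day 15 (2.32 to 6.10) and 3.79-fold higher on day 60 than on day 10 (2.68 to 5.48), while day 60 over day 30 was 2.69 (1.96 to 3.73), just short of the rule. Its match was weak, with an e-value of 7.90e-09. Condensin II subunit G2 (Unigene19167) had 9 tags on day 20 and 3 on day 30 and was not listed otherwise, and the third condensin II unigene (Unigene61450) had at most 3 tags. A centromere protein (Unigene82352) had 0, 11, 3, 2 and 2 tags, at least 2.96-fold higher on day 15 than on day 10 (lower limit 2.03).

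Survivin (Unigene82003), of the complex that corrects attachment to the spindle, had 2, 7, 6, 5 and 24 tags. Day 60 was the highest library, 9.89-fold above day 10 (2.46 to 86.4) and 3.64-fold above day 30 (1.36 to 12.2). Aurora kinase B (Unigene3520), the kinase of the same complex, had 2 tags on day 15 and 4 on day 60, and polo-like kinase 1 (Unigene92778), which acts from mitotic entry to exit, had 8 and 6 on the same days. Neither kinase was listed on days 10, 20 and 30. The unigene matching CDCA3 (Unigene37656), a trigger of mitotic entry, had 3, 13, 0, 3 and 8 tags. CDC23 (Unigene89548), a subunit of the anaphase promoting complex, had 6 tags on day 60 alone, and a match to separase, the extra spindle poles-like 1 protein (Unigene81560), had 2 on that day alone.

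The 8 unigenes of another role were also listed mostly on days 15 and 60. The tags of these 8 summed to 16, 46, 6, 2 and 30 in order of day. CDC123 held 87.5% of them on day 10, 47.8% on day 15 and 66.7% on day 60. CDC123 (Unigene91596), which in yeast and mammals helps to assemble a translation initiation factor, had 14, 22, 0, 0 and 20 tags. The SET unigene (Unigene88950), matching a phosphatase inhibitor and histone chaperone, had 2, 6, 2, 0 and 4. The other 6 had at most 5 tags in a library.

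By day, a unigene was counted as higher or lower when its ratio lay beyond 2-fold over all of the 95% interval and the larger of its levels was 1 scaled TPM or more. From day 10 to day 15, 21 of the 51 members reached that level, 5 were higher (geminin, PCNA, cyclin G1, cyclin B3 and the centromere protein) and 0 lower. Of all unigenes at that level 11.0% were higher and 14.2% lower, and of those with a protein match 15.9% were higher and 9.87% lower. The median log2 ratio of scaled TPM plus 1 was 1.06 over these members, 0.05 over all unigenes and 0.60 over matched ones. Matched unigenes as a whole thus also stood higher on day 15, by less in the median. With the 3′-most site alone 3 members were higher. PCNA then fell short, and cyclin B3 had no tags there on days 10 and 15. With a minimum of 10 scaled TPM, 1 of 5 members (geminin, 20.0%) was higher and 0 lower, against 20.3% higher and 24.0% lower of all unigenes. Of matched unigenes 31.1% were higher and 17.6% lower at that minimum.

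From day 15 to day 20, 23 members reached the level, and 4 were higher and 4 lower. The higher ones were condensin II D3 and G2, cyclin B and cyclin A. The lower ones were polymerase alpha B, PCNA, CDCA3 and CDC123. Among all unigenes 13.3% were higher and 14.4% lower, and among matched ones 8.01% and 17.5%. The median was -1.06 for these members and -0.72 for matched unigenes. Scaled by tag totals alone, 1 member was higher, since condensin II D3 (1.80 to 4.73) and G2 and cyclin B (1.86 to 33.4) then fell short. With a minimum of 10 scaled TPM, condensin II D3 was higher and polymerase alpha B lower of 6 members. That was 16.7% each way, against 25.2% and 27.1% of all unigenes and 17.7% and 38.6% of matched ones. From day 20 to day 30, 14 members reached the level, 0 were higher and 1, cyclin A, was lower, against 12.1% higher and 9.23% lower of all unigenes and 10.7% and 9.65% of matched ones. With the minimum of 10 scaled TPM none of 4 members was higher or lower, against 20.2% and 18.8% of all unigenes. Of matched ones 18.2% and 21.7% were. Over that step the level of geminin was 1.64-fold lower (1.30 to 2.07) and that of cyclin B 3.03-fold lower (1.16 to 9.27), both short of the rule.

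Between day 30 and day 60, 18 members reached the level, 8 were higher and 1 lower. Over all unigenes 7.66% were higher and 9.73% lower, and over matched ones 8.52% and 8.44%. The 8 were geminin, Cdt1, PSF2, the RFC 38-kDa subunit, RFC5, cyclins B and B3, and CDC123, and the 1 was polymerase gamma-2. The level of 17 of the 18 members was higher on day 60, as it was for 51.7% of all unigenes and 60.4% of matched ones. Over all 51 members, 32 had a higher level on day 60, 6 a lower one and 13 were listed on neither day. Of those listed on either day 84.2% were higher, against 54.2% of all unigenes and 62.1% of matched ones. The median log2 ratio was 1.32 for the members that reached the level, 0.05 for all unigenes and 0.30 for matched ones. Cyclin B fell just short when DESeq2 size factors replaced TMM (1.94 to 13.4). With the minimum of 10 scaled TPM, 3 of 4 members (geminin, PSF2 and the RFC 38-kDa subunit) were higher and 0 lower. Of all unigenes 15.5% and 15.3% were, and of matched ones 17.5% and 11.9%.

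Against day 10, day 60 again had 8 members higher and 1 lower of the 19 that reached the level, where 7.93% of all unigenes were higher and 12.2% lower, and 8.14% and 12.3% of matched ones. With the minimum of 10 scaled TPM it had 4 higher and 0 lower of 4 members, against 14.4% and 19.0% of all unigenes. Of matched ones 14.9% and 20.7% were. The 8 were geminin, condensin II D3, PSF2, the RFC 38-kDa subunit, cyclins B and B3, survivin and RFC5, and the 1 was polymerase gamma-2. This comparison shares its day 60 library with the one before. Day 60 was also set against days 15 and 20, a choice made after the values were seen. Of the 24 members at the level, 6 were higher and 2 lower on day 60 than on day 15. Of all unigenes 15.0% and 14.9% were, and of matched ones 8.92% and 17.7%. Of 20 members, 6 were higher and 3 lower on day 60 than on day 20. Of all unigenes 11.9% and 13.0% were, and of matched ones 10.1% and 10.9%. With the minimum of 10 scaled TPM, day 60 had 3 higher and 1 lower of 6 members against day 15, and 3 higher and 1 lower of 5 against day 20. Of all unigenes the shares were 25.0% each way (day 15) and 23.1% and 23.9% (day 20). Of matched ones they were 14.8% and 31.4% (day 15) and 22.8% and 23.2% (day 20). Geminin, PSF2 and RFC5 were the 3 members beyond 2-fold on day 60 against each of the other 4 days. They were 5.88% of the 51 members, where 0.695% of all unigenes and 0.449% of matched ones did so.

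**Figure D3:**
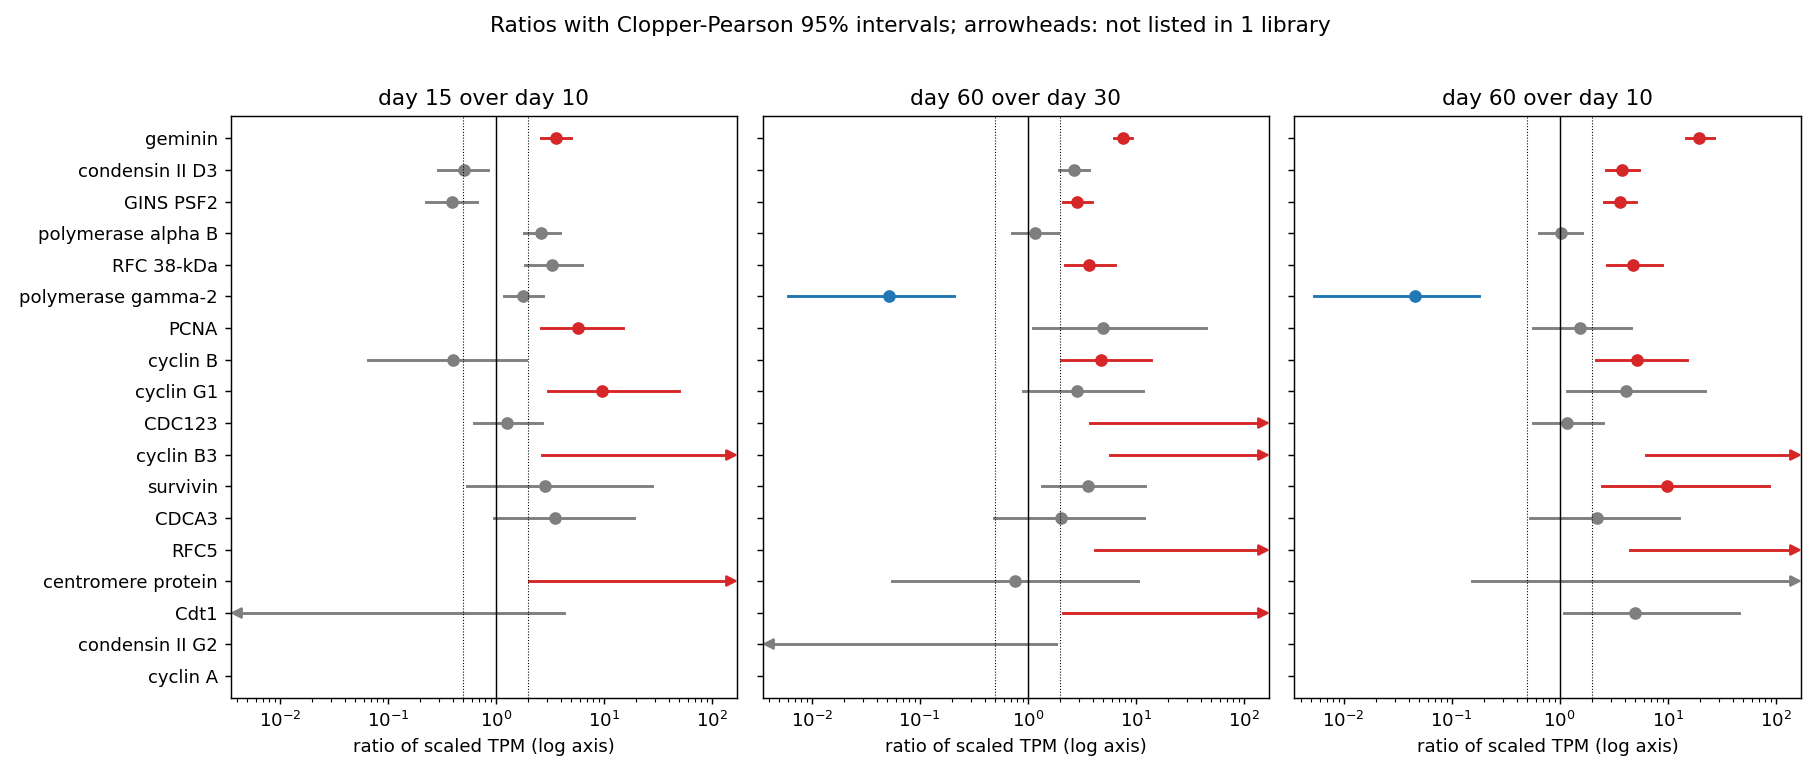
Ratio of scaled TPM, on a log axis, for the 18 members that passed the rule in some comparison or reached 10 scaled TPM, with Clopper-Pearson 95% intervals; red is higher and blue lower by the rule, dotted lines mark 2-fold either way, arrowheads mark a member not listed in 1 of the days, and members listed on neither day have no mark. The panels set day 15 over day 10, day 60 over day 30 and day 60 over day 10, and on day 60 over day 30 there are 8 members in red and polymerase gamma-2 alone in blue.

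Some members were counted from tags of more than 1 sequence, and the share of each sequence differed between the libraries. With 1 library per day and the number of oysters not given, differences between oysters and between days cannot be told apart here. At the 3′-most site of PSF2 the main tags differed by 1 base, G6A, with positions counted from 1 at the 5′ end of the tag and the base of the commoner tag given first. For polymerase alpha B the difference was C10T. The tags are printed with the differing base in capitals, because the counts below are given for each form of the tag.
PSF2, commoner tag: catgtGctaagaagcaatatt
PSF2, other tag: catgtActaagaagcaatatt
polymerase alpha B, commoner tag: catggtcatCaacacaaacaa
polymerase alpha B, other tag: catggtcatTaacacaaacaa

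For PSF2 the commoner tag had 34, 7, 42, 52 and 83 copies in order of day and the other tag 9, 9, 3, 0 and 99. The commoner form made up 100% of these tags on day 30 (93.2% to 100%, exact binomial 95% interval) and 45.6% on day 60 (38.2% to 53.1%). Most of the difference between days 30 and 60 lay in the other form, which was at least 25.0-fold higher on day 60, while the commoner form had a ratio of 1.21 (0.846 to 1.75). For polymerase alpha B the commoner tag had 12, 119, 11, 30 and 24 copies and the other tag 25, 2, 17, 0 and 22. The commoner form was 98.3% of the day 15 tags (94.2% to 99.8%) and 32.4% of those on day 10 (18.0% to 49.8%). From day 10 to day 15 the commoner form was 8.01-fold higher (4.42 to 15.9) and the other form 15.5-fold lower (3.86 to 135).

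For the RFC 38-kDa subunit the libraries differed in the site instead. The 3′-most CATG site had 7, 0, 9, 18 and 0 tags, and the next site had 8, 61, 10, 0 and 87. The high days 15 and 60 thus held tags of the next site alone, and day 30 held tags of the 3′-most site alone. By site, day 60 against day 30 was at least 7.91-fold lower at the 3′-most site and at least 22.0-fold higher at the next one. MCM7 had paired tags of this kind too (G6A at its 3′-most site and T14C at the next), in which day 10 held one form of each pair and days 15 and 60 the other, from 2 to 4 copies each. Day 30 held 1 form in all 3 of PSF2, polymerase alpha B and the RFC subunit. Tags of 1 site that differed by 1 or 2 bases were found in 4 of the 51 members (7.84%) and in 13.4% of matched unigenes.

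**Figure D4:**
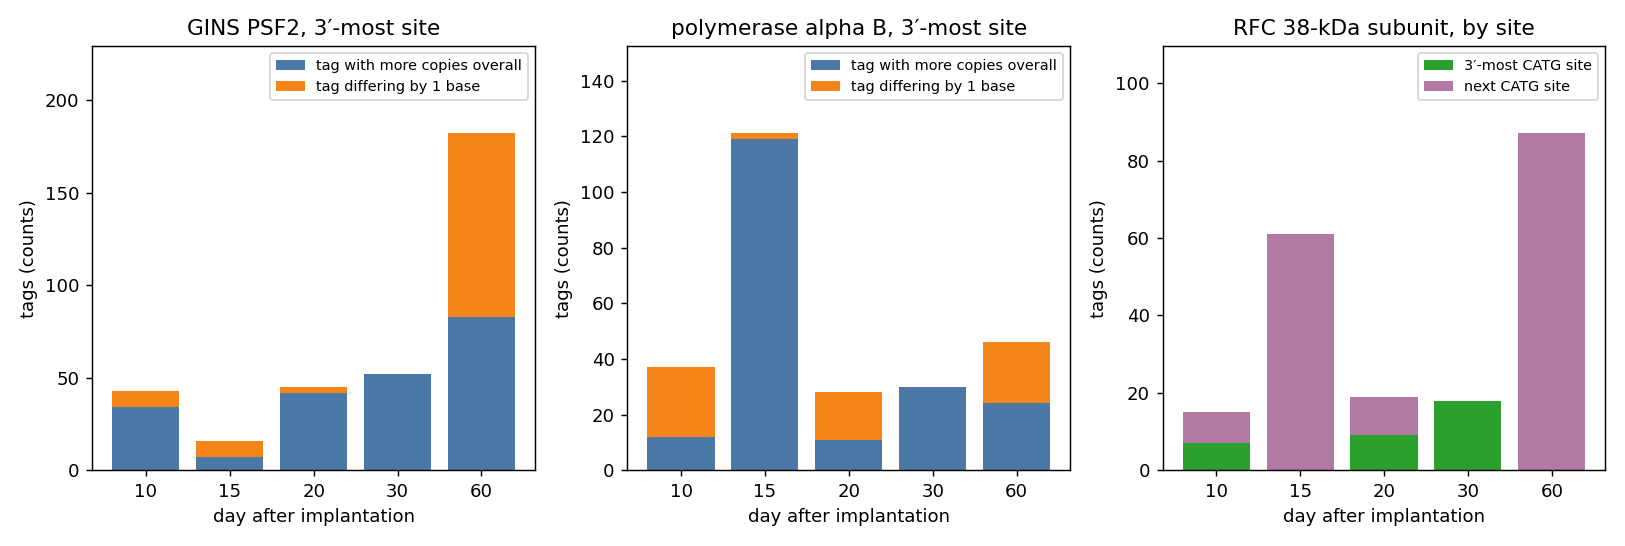
Tag counts by day for PSF2 and polymerase alpha B, split by the form of the tag at the 3′-most site, and for the RFC 38-kDa subunit, split by CATG site. Day 30 holds 1 form in each panel, with 52, 30 and 18 tags, and the high day 15 and day 60 counts of RFC are all from the next site.

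The other genes of replication and division were 66 unigenes found by further words, such as replication protein A, ribonucleotide reductase, kinesin, septin, Cdc20 and cohesin parts. They include some proteins that match by word only, such as a tuftelin-interacting protein. Their tags summed to 72, 303, 107, 55 and 242 in order of day, or 16.1, 54.6, 24.8, 13.3 and 44.5 scaled TPM, again highest on days 15 and 60. From day 10 to day 15, 14 of the 66 reached 1 scaled TPM, and 4 were higher and 0 lower, where 11.0% and 14.2% of all unigenes were. From day 15 to day 20, 2 were higher and 3 lower of 19, near the 13.3% and 14.4% of all unigenes. From day 20 to day 30, 0 were higher and 1 lower of 10, against 12.1% and 9.23%. On day 60, 3 were higher and 0 lower of 13 against day 30, where 7.66% and 9.73% of all unigenes were, and 3 were higher and 0 lower of 12 against day 10, where 7.93% and 12.2% were.

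Replication protein A 14 kDa subunit (Unigene65825), of the complex that covers single-stranded DNA at the fork, had 17, 55, 11, 9 and 69 tags. Its high days, 15 and 60, were those of the RFC 38-kDa subunit, with a fall of 3.88-fold to day 20 (2.01 to 8.23) and a day 60 level 5.82-fold above day 30 (2.89 to 13.3). The small chain of ribonucleotide reductase (Unigene91290), which makes the building blocks of DNA, had 0, 0, 13, 0 and 21 tags. Cdc25 (Unigene92694), the phosphatase that switches on the kinase of cyclin B, had 2, 4, 9, 0 and 23, and Cdc20 (Unigene440), which starts anaphase, had 0, 2, 0, 0 and 11. Day 60 was the highest library for these 3 unigenes, but not for others of the same names. A pair of further Cdc20-like unigenes had 5 tags (Unigene87191) and 3 tags (Unigene87178) on day 15 alone, and the large subunit of ribonucleotide reductase (Unigene86262) had 0, 8, 0, 0 and 5. Anillin (Unigene83091), of the cleavage furrow, had 11 tags on day 15 alone, a septin (Unigene91337) had 0, 23, 8, 3 and 6, and Septin-1 (Unigene63125) had 3, 13, 0, 0 and 2. Another septin (Unigene90371) had 2, 0, 0, 3 and 0 tags. The cohesin subunit SMC3 (Unigene92846), which ties sister chromatids, had 0, 12, 0, 0 and 4 tags, and kinesin 23 (Unigene92786), of the midbody, 3, 12, 4, 6 and 9. Other patterns were found too. A telomerase-associated protein (Unigene74459) had 13, 7, 6, 10 and 3 tags, the repair protein SMC5 (Unigene89656) 3, 3, 5, 4 and 6, and a chromatin assembly factor (Unigene90874) 0, 11, 13, 3 and 2. Thymidine kinase 2 (Unigene87971), a mitochondrial enzyme, had 0, 0, 8, 2 and 3.

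Of the markers of other cell types, the summed levels of the cilia list and of the germline list were highest on day 15 and lower on day 60. The 29 unigenes of sperm and motile cilia summed to 5.80, 143, 6.49, 7.27 and 14.2 scaled TPM in order of day, with 25 of the 29 listed on day 15. The 9 egg and germline unigenes summed to 1.56, 7.56, 1.39, 2.42 and 1.84. Synaptonemal complex protein 3 (Unigene91047), a part of paired chromosomes in meiosis, led them with 3, 26, 3, 2 and 0 tags. Of the same list the synaptonemal complex protein 1 (Unigene85275) had 5 tags on day 15 alone. Neither synaptonemal protein was listed on day 60. The egg coat and yolk matches of the list differed from them, with 2, 0, 3, 6 and 7 tags for a vitelline coat component (Unigene89045) and 3 tags on day 60 alone for a vitellogenin match (Unigene42139). The part of germ or ciliated cells in the levels of the members was not tested.

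The 10 hemocyte unigenes, of blood cells, summed to 174, 29.7, 41.7, 180 and 165 scaled TPM, high on days 10, 30 and 60 and low on days 15 and 20. Allograft inflammatory factor 1 (Unigene89534) held most of these tags, with 713, 144, 152, 711 and 843. It made up 843 of the 897 hemocyte tags on day 60. The part of hemocytes in the levels of the members was not tested. The 15 muscle unigenes summed to 1.78 to 7.42 scaled TPM, and the 10 digestive gland unigenes to 28.5, 12.6, 18.5, 9.45 and 6.25, lowest on day 60.

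**Figure D5:**
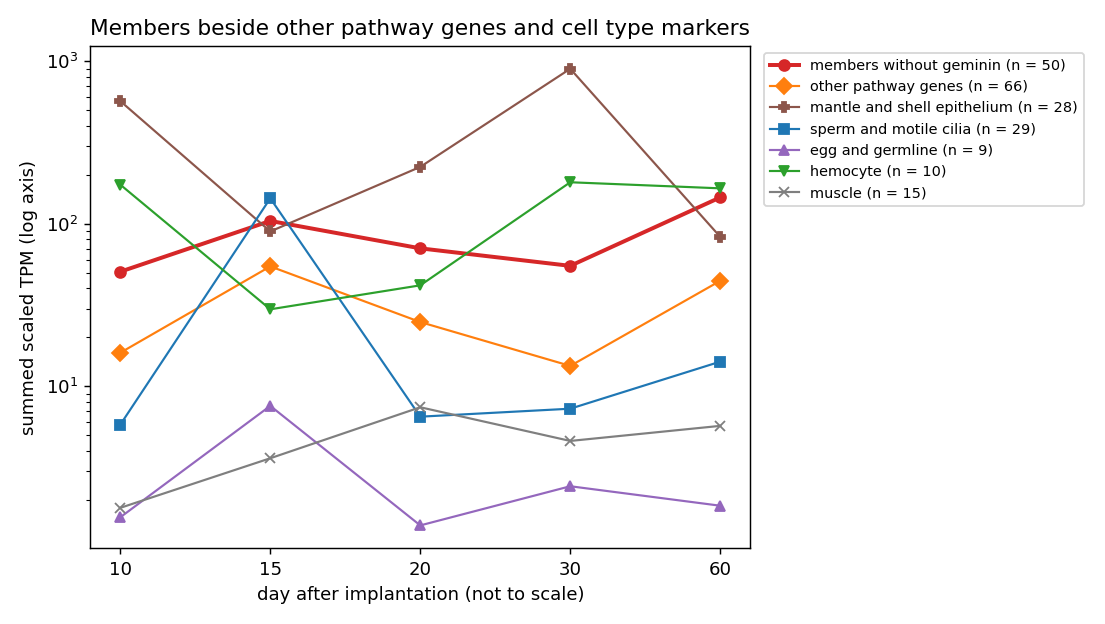
Summed scaled TPM by day, on a log axis, for the 50 members without geminin, the 66 other pathway genes, and marker lists of mantle and shell epithelium, sperm and motile cilia, egg and germline, hemocytes and muscle. The cilia markers peak on day 15 at 143 and stand at 14.2 on day 60, the mantle markers stand at 89.5 and 82.9 on those days, and the members at 104 and 145.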

How the data were processed

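Per the file headers, the authors deposited for each library a table of unigenes with a count of tags (the sum of all tag copies of the unigene, as raw whole numbers), a TPM value, the best nr match, gene ontology terms, and each tag with its CATG site and copies. By the values, the deposited TPM is the count over 1 total per library with no length correction. How the tags were mapped is not given in the sources used here. Transcripts were named by the deposited matches, and no genome entered the work. The labels name a TruSeq RNA kit, while the files hold CATG tags. Totals were recovered as count over TPM for unigenes of at least 5000 tags, and TMM factors over the 5 libraries (0.948, 1.16, 0.902, 0.878 and 1.15 in order of day) came from edgeR 4.0.16 in R 4.3.3. Size factors of DESeq2 1.42.0 were an alternative. No model was fitted, since each day had 1 library.

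Ratios carry Clopper-Pearson 95% intervals conditional on the pair of counts, and levels exact Poisson intervals. A member not listed on 1 day is given against a floor of 3 tags per library. Medians use a pseudocount of 1 scaled TPM. The call rule was tested on simulated counts. Members named are those called in any comparison or reaching 10 scaled TPM, then the 12 with the most tags, and of other pathway genes the 10 with the most tags and those called. Further ones are said to be chosen later or only complete a role. Roles were assigned by the match name. The members and lists were chosen with earlier results of these data known. Python 3.11.15, scipy 1.17.1 and matplotlib 3.10.9 were used. The single values of 1 member are not reported here.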

Additional observations from a re-analysis of the deposited data

How the results depend on the processing

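No paired analysis was possible because each day had 1 library. Size factors of DESeq2, or leaving out the 8 members of another role, kept every count of members higher or lower within 1.5 times. Each also kept every summed ratio within its interval. The same held for TMM without the day 15 library, chosen after seeing the data, in the comparisons that do not use day 15. Using no minimum level was applied to the counts of members higher or lower only, and kept them within 1.5 times. Thinning each library to 600848 listed tags was applied only to the number of members listed per day, which stayed within 1.5 times. Scaling by tag totals alone moved all log2 ratios by 0.29 (day 15 over 10), -0.37 (20 over 15), 0.39 (60 over 30), 0.28 (60 over 10) and 0.35 (60 over 20). It gave 8 members higher on day 15 than 10, 1 higher on day 20 than 15, and summed ratios of 2.85, 0.636, 5.68, 7.14 and 3.94 in that order. Scaling by listed tags without Unigene51171 gave 0.720 (20 over 15), 5.55 (60 over 30), 7.67 (60 over 10), 3.03 (60 over 15), 4.21 (60 over 20) and 1 member lower on day 60 than 15. A minimum of 10 scaled TPM gave 1 higher on day 15 than 10, 1 higher and 1 lower on day 20 than 15, 0 lower on day 30 than 20, 3 higher and 0 lower on day 60 than 30, 4 higher and 0 lower on day 60 than 10, 3 and 1 for day 60 against 15, and 3 and 1 against 20. Intervals beyond 3-fold gave 1 higher on day 15 than 10, 0 higher and 1 lower on day 20 than 15, 0 lower on day 30 than 20, 4 higher on day 60 than 30, 3 higher on day 60 than 10, 1 lower on day 60 than 15, and 3 higher and 1 lower on day 60 than 20.

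The 3′-most site alone gave 3 higher on day 15 than 10, 0 lower on day 30 than 20, 5 higher and 2 lower on day 60 than 30, 1 lower on day 60 than 15, and summed ratios of 2.00 (15 over 10), 0.928 (20 over 15) and 2.87 (60 over 15). It turned the RFC 38-kDa subunit to 0.126 (60 over 30) and 0.353 (60 over 10), since its day 60 tags are all at the next site. Leaving out geminin gave summed ratios of 0.678 (20 over 15), 2.64 (60 over 30), 2.87 (60 over 10), 1.40 (60 over 15) and 2.06 (60 over 20). Leaving out the 3 most abundant members, chosen after seeing the data, gave 3.01 (15 over 10), 0.454 (20 over 15), 2.52 (60 over 30), 2.37 (60 over 10), 1.73 (60 over 20) and, turning the direction, 0.788 (60 over 15). The cause of the other shifts was not tested. With the 3′-most site alone PCNA (15 over 10, 20 over 15), PSF2, cyclin B3 (60 over 30, 60 over 10) and condensin II G2 fell short of the rule too. Cyclin A (20 over 15, 30 over 20) and cyclin B3 (15 over 10) had no tags left. The 25 members under 1 scaled TPM could not pass the rule at this depth.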
